A study of Mus musculus with 10 samples.

Results

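Genes that close wounds in the muscle membrane were followed in calf muscle of mice without desmin. The 10 genes are Dysf, Myof, Trim72, Cav3, Anxa1, Anxa2, Anxa5, Anxa6, Ahnak and Ahnak2, out of 54232 genes in the deposited table, and all 10 reached the expression limit of the fit across genes. They were chosen by name, with the differences between the genotypes in these same mice already known. The differences between desmin knock-out and wild-type muscle were therefore selected on, and they are given for these 10 genes as a description, without a test.

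RNA was sequenced from calf muscle (gastrocnemius in the methods, gastrocnemius with plantaris elsewhere in the study) of 5 homozygous desmin knock-out mice (Des -/-) and 5 wild-type mice (Des wt/wt), all 3 months old, the wild-type mice being littermates. The strain label, which both genotypes share, joins B6J, 129Sv and the allele Destm1Cba/Cscl, which marks a B6J background with the targeted desmin allele made in 129Sv. The allele is carried in every cell of the mouse and not in muscle fibers alone. The study's methods speak of RNA pooled from 5 muscles per genotype, but the table gives every mouse a column, and a column was taken as 1 mouse. Expression is given as regularized log (rlog) values. These are log2 values corrected for library size, in which each gene is pulled in towards its own average, so that differences come out smaller than in counts. Differences below are knock-out minus wild-type on this log2 scale, with their standard error (SE) from the fit across genes. That SE takes a common spread for both genotypes and is drawn towards the spread of other genes. Sequencing depth is unknown from such values.

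Des, the targeted gene, separated the genotypes as labelled, with 11.76 to 11.89 in knock-out and 16.10 to 17.74 in wild-type mice (exact permutation test, two-sided, p = 0.00794, the smallest that 5 against 5 allows). The Des level per kb of exon was 9.94 in knock-out muscle compared with 14.67 in wild-type muscle. Because rlog values are pulled towards the average of the gene, this does not show how many Des reads remained in knock-out muscle. Values per gene also do not show which exons any such reads came from. Wild-type mouse 3 stood apart. It correlated less well with its own genotype (mean r = 0.982) than the other wild-type mice did (at least 0.989). Its linear values summed to 1.48 times the median of the mice, compared with 0.949 to 1.06 in the others. Its median rlog value over the tested genes was the lowest (8.45, others 8.53 to 8.59). It lay at the top of the wild-type range for Cav3, Anxa2, Anxa5, Anxa6, Trim72 and Ahnak2 and at the bottom for Anxa1, Ahnak and Myof. The fiber genes Acta1, Ckm, Myh4, Myh1 and Tnnt3, read as a check of the tissue label, had rlog values of at least 17.07 in every mouse.

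When the membrane of a muscle fiber tears, calcium enters, and proteins that sense calcium and bind lipids bring vesicles to the tear and seal it. Dysferlin (Dysf) is such a sensor with C2 domains, its loss causes limb-girdle and Miyoshi myopathy, and myoferlin (Myof) is its relative in myoblasts and endothelium. Trim72 encodes MG53, a muscle protein that gathers vesicles at the wound, and Cav3 encodes the caveolin of muscle. Annexins bind acidic phospholipids when calcium rises and form a cap on the wound, and AHNAK is a giant scaffold protein found in complexes with dysferlin and with annexin A2 and its partner S100A10.

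The widest differences were found for the AHNAK genes and for Anxa2. The bases before their RefSeq starts are shown to place these 3 genes on the genome (GRCm38.p6), read 5′ to 3′ on the strand of the gene and ended before any exon of GENCODE. Capitals mark short motifs, which are the GC box (GGGCGG), the AP-1 site (TGACTCA), the E-box CAGCTG and MCAT (CATTCC), searched on both strands (a match on the other strand is shown as its reverse complement) together with a TATA box (TATAAA) and the CArG box.
Ahnak2 (chr12:112795743-112795992, reverse strand, 250 bases): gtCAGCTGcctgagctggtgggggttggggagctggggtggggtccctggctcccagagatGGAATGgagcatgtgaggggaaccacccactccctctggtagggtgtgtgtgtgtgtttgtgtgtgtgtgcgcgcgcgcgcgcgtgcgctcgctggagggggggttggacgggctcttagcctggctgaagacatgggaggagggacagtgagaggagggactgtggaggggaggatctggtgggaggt
Ahnak (chr19:8989034-8989283, forward strand, 250 bases): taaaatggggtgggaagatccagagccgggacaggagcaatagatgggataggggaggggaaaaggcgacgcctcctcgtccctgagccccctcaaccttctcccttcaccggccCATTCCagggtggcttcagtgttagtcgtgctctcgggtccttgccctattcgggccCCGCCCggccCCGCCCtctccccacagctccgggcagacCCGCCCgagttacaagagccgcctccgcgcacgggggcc
Anxa2 (chr9:69453433-69453619, forward strand, 187 bases): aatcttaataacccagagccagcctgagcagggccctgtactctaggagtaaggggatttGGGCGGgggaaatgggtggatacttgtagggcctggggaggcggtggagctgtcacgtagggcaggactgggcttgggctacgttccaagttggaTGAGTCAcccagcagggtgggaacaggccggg
Of the 10 genes, 9 have an entry in the promoter table. An AP-1 site was found within 250 bases of the start for Anxa2 alone, and in 4.46% of the 32851 promoters. MCAT was found for Ahnak, Ahnak2 and Anxa1 and in 12.6% of promoters, the E-box for Ahnak2 and Cav3 and in 13.0%, the GC box for Ahnak, Anxa2 and Dysf and in 32.7%, and the TATA box for Anxa1 and Anxa2 (there in bases not shown) and in 12.4%. No CArG box was found for the 9 genes, and 1.47% of promoters hold one. The RefSeq start of Ahnak2 lies inside the longer gene of GENCODE, and the bases shown for it are intronic there. These matches describe letters and no binding was measured.

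In desmin knock-out muscle, 9 of the 10 genes had a higher mean, and the median log2 difference was 0.37. The mean of Anxa6 was lower, but higher after quantile normalization (0.017) or without wild-type mouse 3 (0.064). For Anxa1, Anxa2, Anxa5, Trim72, Ahnak and Ahnak2, all 5 knock-out values lay above all 5 wild-type values. Genes with this pattern made up 7.45% of the 14289 genes tested. In the fit across all genes (limma, adjusted p under 0.05) these 6 genes were called higher and none lower, where 7.7% of all genes were called higher, 5.99% lower and 13.7% in either direction. Nothing is read from these counts, because the genes were chosen with the contrast known. The median log2 difference of all tested genes was -0.0029. In such bulk tissue, fewer cells of a type and less RNA per cell cannot be told apart.

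**Figure D1:**
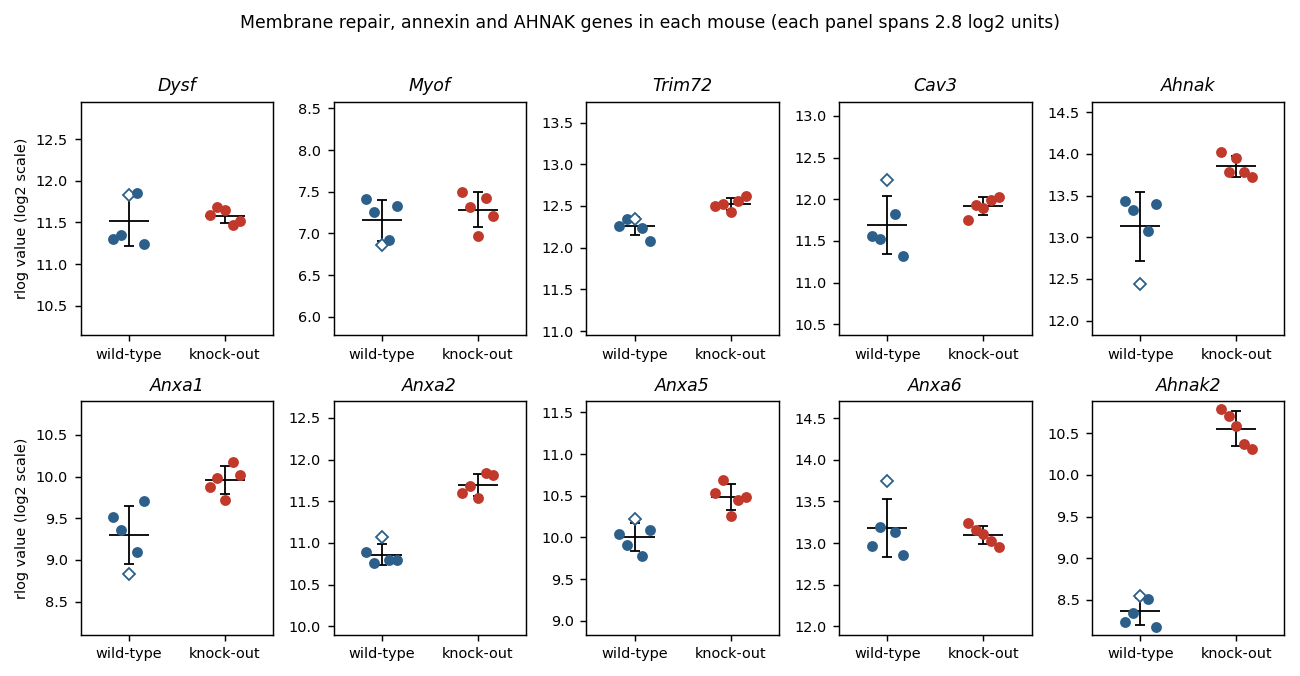
Deposited rlog value (log2 scale, vertical axis) of the 10 genes in each of 5 wild-type mice (blue) and 5 desmin knock-out mice (red), with the mean and SD in black and wild-type mouse 3 as an open diamond. The knock-out points lie above the wild-type points for Ahnak2, Anxa2, Ahnak, Anxa1, Anxa5 and Trim72, and both groups share a range for Dysf, Myof, Cav3 and Anxa6.

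Ahnak2 (ENSMUSG00000072812, chromosome 12, 112772194 to 112802657, reverse strand), a giant scaffold gene related to Ahnak, had the largest difference of the 10. Its values were 10.79, 10.71, 10.58, 10.38 and 10.31 in knock-out mice 1 to 5, and 8.24, 8.35, 8.55, 8.51 and 8.17 in wild-type mice 1 to 5. The lowest knock-out mouse was 1.77 above the highest wild-type mouse on the log2 scale. The mean was 10.55 ± 0.21 (SD, n = 5) compared with 8.36 ± 0.16 (SD, n = 5), a difference of 2.19 (SE 0.12) or 4.57-fold on the rlog scale. By size of the rise it was number 9 of all tested genes. Leaving out any 1 mouse gave 2.13 to 2.25.

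Ahnak (ENSMUSG00000069833, chromosome 19, 8989284 to 9076914, forward strand) was much more abundant to begin with. Per kb of exon, the rlog level was 8.82 for Ahnak and 4.54 for Ahnak2 in wild-type muscle, and 9.53 and 6.73 in knock-out muscle. Its values were 14.02, 13.78, 13.95, 13.78 and 13.73 in knock-out mice 1 to 5, and 13.43, 13.33, 12.43, 13.07 and 13.40 in wild-type mice 1 to 5. All knock-out mice lay above all wild-type mice, and wild-type mouse 3 was the lowest of all. The difference was 0.72 (SE 0.17), and 0.54 (SE 0.09) without wild-type mouse 3. Both genes hold long repeated stretches, and how reads with several matches were counted is not given in the sources used here.

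Of the 4 annexin genes, Anxa2 (ENSMUSG00000032231, chromosome 9, 69453620 to 69491795, forward strand) showed the largest difference. Annexin A2 forms a tetramer with S100A10 at the membrane. Its values were 11.59, 11.68, 11.54, 11.84 and 11.82 in knock-out mice 1 to 5, and 10.89, 10.75, 11.08, 10.79 and 10.79 in wild-type mice 1 to 5. The genotypes were separated by 0.46, more than 3 times the SD within either group (0.13 in both), and the log2 difference was 0.83 (SE 0.10), or 1.78-fold.

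Anxa1 (ENSMUSG00000024659, chromosome 19, 20373428 to 20390944, reverse strand) encodes an annexin that also acts as a mediator in the resolution of inflammation. It had 9.87, 9.98, 9.72, 10.17 and 10.02 in knock-out mice 1 to 5, and 9.51, 9.36, 8.83, 9.09 and 9.71 in wild-type mice 1 to 5. The groups did not overlap, but knock-out mouse 3 and wild-type mouse 5 were only 0.018 apart. The difference was 0.65 (SE 0.15), and 0.54 without wild-type mouse 3.

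Anxa5 (ENSMUSG00000027712, chromosome 3, 36448923 to 36475894, reverse strand) encodes the annexin that assembles as a lattice on exposed phosphatidylserine. The knock-out values were 10.53, 10.68, 10.26, 10.45 and 10.49, and the wild-type values 10.04, 9.91, 10.23, 9.78 and 10.08, for mice 1 to 5 of each genotype. Here the closest mice, knock-out 3 and wild-type 3, were 0.035 apart. The genotypes differed by 0.48 (SE 0.11).

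Anxa6 (ENSMUSG00000018340, chromosome 11, 54979108 to 55033445, reverse strand), which encodes an annexin with a doubled core, was the exception among the 4. It had 13.24, 13.15, 13.11, 13.02 and 12.95 in knock-out mice 1 to 5, and 12.96, 13.19, 13.75, 13.13 and 12.85 in wild-type mice 1 to 5. The knock-out range lay inside the wild-type range, with wild-type mouse 3 above and wild-type mouse 5 below all knock-out mice. The log2 difference of -0.080 (SE 0.15) was smaller than the SD of 0.35 between wild-type mice, and it was 0.064 without wild-type mouse 3, which had the highest value.

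The genes of the vesicle and caveola machinery had smaller differences, from 0.065 for Dysf to 0.27 for Trim72. Trim72 (ENSMUSG00000042828, chromosome 7, 128003949 to 128011033, forward strand) had 12.50, 12.52, 12.43, 12.56 and 12.62 in knock-out mice 1 to 5, and 12.26, 12.34, 12.35, 12.24 and 12.08 in wild-type mice 1 to 5. The difference was small and regular, with no overlap, a gap of 0.082, and a log2 difference of 0.27 (SE 0.08). Leaving out any 1 mouse gave 0.23 to 0.29.

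Cav3 (ENSMUSG00000062694, chromosome 6, 112459505 to 112472872, forward strand) had 11.75, 11.94, 11.90, 11.99 and 12.02 in knock-out mice 1 to 5, and 11.56, 11.52, 12.23, 11.82 and 11.32 in wild-type mice 1 to 5. Wild-type mouse 3 was above every knock-out mouse and the other wild-type mice were lower, 1 of them within the knock-out range. The difference was 0.23 (SE 0.14), below the SD of 0.35 between wild-type mice. Without wild-type mouse 3 it was 0.37 (SE 0.09).

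Dysf (ENSMUSG00000033788, chromosome 6, 84008590 to 84211060, forward strand) had 11.59, 11.68, 11.64, 11.47 and 11.52 in knock-out mice 1 to 5, and 11.30, 11.35, 11.83, 11.86 and 11.24 in wild-type mice 1 to 5. The wild-type mice fell on both sides of the knock-out mice, with mice 3 and 4 above and mice 1, 2 and 5 below. The mean difference was 0.065 (SE 0.13), compared with an SD of 0.30 in wild-type and 0.089 in knock-out mice, and it was 0.14 without wild-type mouse 3 and -0.0028 without wild-type mouse 5.

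Myof (ENSMUSG00000048612, chromosome 19, 37899036 to 38043577, reverse strand) was the least abundant of the 10, at a wild-type rlog level per kb of 3.50 compared with 8.46 for Dysf. It had 7.50, 7.32, 6.97, 7.43 and 7.21 in knock-out mice 1 to 5, and 7.42, 7.25, 6.87, 6.92 and 7.33 in wild-type mice 1 to 5. Knock-out mice 1 and 4 were highest and wild-type mouse 3 lowest, and the groups overlapped. The mean difference was 0.13 (SE 0.14), and it moved between 0.055 without wild-type mouse 3 and 0.21 without knock-out mouse 3.

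**Figure D2:**
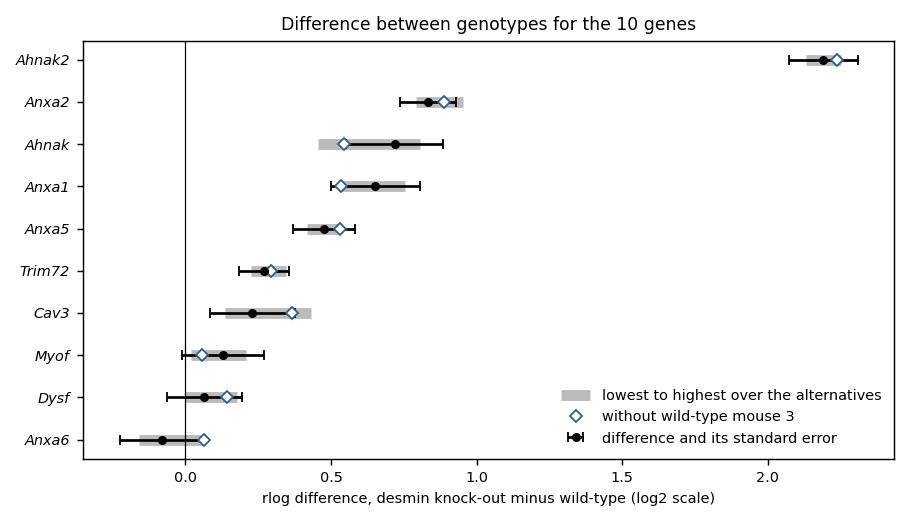
Difference between desmin knock-out and wild-type muscle on the rlog scale (log2, horizontal axis) for the 10 genes, with the standard error, the value without wild-type mouse 3 (diamond) and the range over 17 alternative fits (grey). Ahnak2 at 2.19 stands apart from the next gene, Anxa2 at 0.83, and the ranges of Dysf and Anxa6 include 0.

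Antisense genes of GENCODE overlap exons of Anxa2 (Gm16144), Dysf (Gm33024, Gm15475) and Trim72 (Gm15533). Gm16144 and Gm15475 were listed at 0 in all 10 mice, and the highest value of the other two was 0.87. The library kit keeps the strand, but whether it was used in counting is not given in the sources used here.

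Among the 10 annexin genes that were tested, the order of levels per kb of exon in wild-type muscle was Anxa6 (11.62), Anxa7 (9.98), Anxa11 (9.28), Anxa5 (9.18), Anxa2 (8.96), Anxa4 (7.79), Anxa1 (7.76), Anxa3 (7.09), Anxa8 (4.12) and Anxa9 (2.25). Anxa11, Anxa5 and Anxa2 lay within the SD of Anxa11 (0.46) of each other, and Anxa4 and Anxa1 were closer than their SD (0.17 and 0.35). In knock-out muscle Anxa2 (9.80) and Anxa5 (9.65) lay above Anxa11 (9.03), and Anxa4 (8.97) lay next to it.

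**Figure D3:**
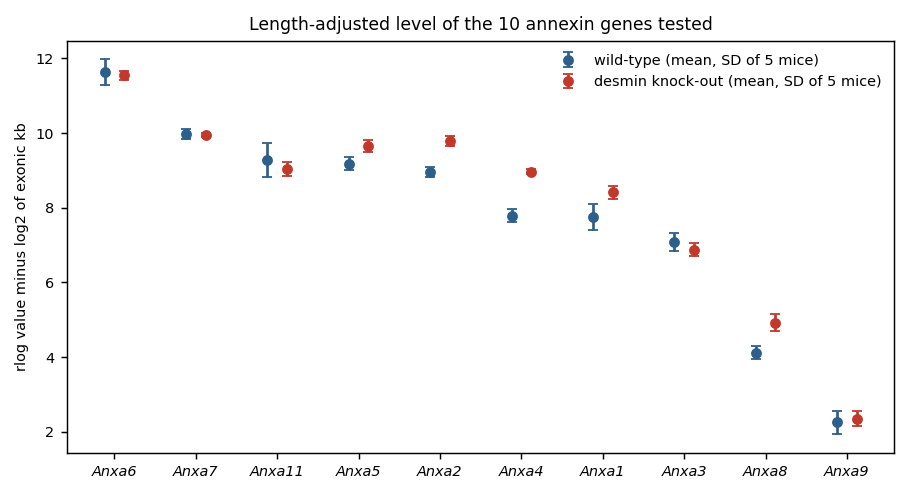
Level of 10 annexin genes as the rlog value minus the log2 of the exonic length in kb (vertical axis), as mean and SD of 5 wild-type (blue) and 5 desmin knock-out (red) mice. Anxa4, Anxa8, Anxa2, Anxa1 and Anxa5 are higher in knock-out muscle, whereas Anxa6, Anxa7, Anxa11, Anxa3 and Anxa9 differ by 0.25 at most (Anxa11).

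Further genes of membrane repair were taken from lists by family, which were also chosen with earlier results of these data known. The 8 lists held 68 genes, of which 62 were tested. Of these, 6 rose and 3 fell in desmin knock-out muscle (limma, adjusted p under 0.05), which is 14.5% and close to the 13.7% of all genes. Their median log2 difference was 0.044. Without wild-type mouse 3, 10 were higher and 5 lower. Calls over all tested genes rose as well, from 1100 higher and 856 lower to 1335 higher and 1159 lower. At an unadjusted p under 0.05 (limma, all mice), 20 of the 62 passed (32.3%), where 27.6% of all tested genes did. These included 4 of 6 genes of the S100 list, 3 of 4 of the EHD list and 8 of 20 of the ESCRT list. Among the other annexins, Anxa4 and Anxa8 rose, and 4 of the 6 tested did not pass. Anxa4, whose product binds and bends membranes, had the largest rise in these lists. It had 11.23, 11.11, 11.28, 11.13 and 11.16 in knock-out mice 1 to 5, and 10.08, 10.05, 9.98, 10.18 and 9.72 in wild-type mice 1 to 5, so the genotypes were far apart. The difference was 1.18 (SE 0.09, limma adjusted p 3.27e-06).

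Anxa8, at a low level, rose by 0.80 (SE 0.14, limma adjusted p 0.00142), from 5.03 ± 0.18 to 5.83 ± 0.23 (SD, n = 5). Anxa7 (log2 difference -0.029) and Anxa11, linked to RNA granules (-0.25, and -0.067 without wild-type mouse 3), did not pass, and Anxa10 and Anxa13 were below the expression limit. Fer1l6 was the single other ferlin above that limit, with a log2 difference of -0.10.

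Of 6 S100 genes whose products bind annexins, S100a4 rose and none fell. S100a4, a calcium-binding protein of fibroblasts and leukocytes as well as other cells, differed by 0.93 (SE 0.19, limma adjusted p 0.00507). Its lowest knock-out value, 7.31 in mouse 1, lay just under the 7.33 of wild-type mouse 4. S100a10, the partner of annexin A2, had 10.01, 10.36, 10.21, 10.46 and 10.49 in knock-out mice 1 to 5, and 10.04, 9.73, 9.94, 10.11 and 10.15 in wild-type mice 1 to 5. Knock-out mouse 1 was within the wild-type range and the other 4 were above it, and the difference of 0.31 (SE 0.11) did not pass (limma adjusted p 0.0922, and 0.00198 to 0.216 over the alternatives). S100a11, the partner of annexin A1, showed a difference of -0.14, and of -0.088 without wild-type mouse 3. Whether Anxa2 differed from S100a10 in its response was not tested.

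None of the 8 genes of caveolae passed (limma, 0 of 8 also at an unadjusted p under 0.05), with log2 differences between -0.16 for Cav1 and 0.12 for Cavin1 (0.080 without wild-type mouse 3). Cavin4, the cavin of muscle, showed 0.11. The EHD genes, ATPases that shape membranes, were mixed in direction. Ehd4 rose by 0.48 (SE 0.08, limma adjusted p 0.00134), and the lowest knock-out mouse (10.94) was above the highest wild-type mouse (10.60). Ehd2, the EHD protein of caveolar necks, fell (log2 difference -0.42, SE 0.13, limma adjusted p 0.046), a call that held in 8 of 17 alternatives. Ehd1 showed -0.45 (limma adjusted p 0.0553), and -0.31 (limma adjusted p 0.0259) without wild-type mouse 3 (0.0139 to 0.129 over the alternatives).

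The ESCRT machinery cuts off damaged membrane and is recruited by the calcium sensor ALG-2 (Pdcd6). Of its 20 genes, Chmp4c and Chmp1b rose. Chmp4c differed by 0.79 (SE 0.14, limma adjusted p 0.00178) with no overlap between the genotypes, and Chmp1b by 0.40 (SE 0.11, limma adjusted p 0.0253, held in 10 of 17 alternatives). Chmp4b, whose product builds the ESCRT filament, showed -0.0048 (0.069 without wild-type mouse 3). Pdcd6 (0.28, adjusted p = 0.0584) and Pdcd6ip, the gene of its partner ALIX (0.26, adjusted p = 0.052, both limma), did not pass although all knock-out values lay above all wild-type values.

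In the list of vesicle fusion, Syt7, a calcium sensor of lysosome exocytosis, fell from 5.87 ± 0.25 to 5.31 ± 0.21 (SD, n = 5; log2 difference -0.55, SE 0.14, limma adjusted p 0.0206). This call was lost without knock-out mouse 3 or 5 and with the replicate block. Of 8 other partners of repair, Capn3, the muscle calpain whose loss causes limb-girdle dystrophy, fell with no overlap. Its values were 12.47, 12.33, 12.47, 12.46 and 12.39 in knock-out mice 1 to 5, and 12.91, 12.98, 13.35, 12.96 and 12.77 in wild-type mice 1 to 5, a log2 difference of -0.57 (SE 0.11, limma adjusted p 0.00278). The calpains Capn1 (-0.014, and 0.12 without wild-type mouse 3) and Capn2 (0.071, and 0.18 without that mouse) did not pass. Smpd1, the gene of acid sphingomyelinase, showed a difference of -0.47 (limma adjusted p 0.142). Without wild-type mouse 3 it was -0.23 (limma adjusted p 0.0356, and 0.0198 to 0.243 over the alternatives).

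**Figure D4:**
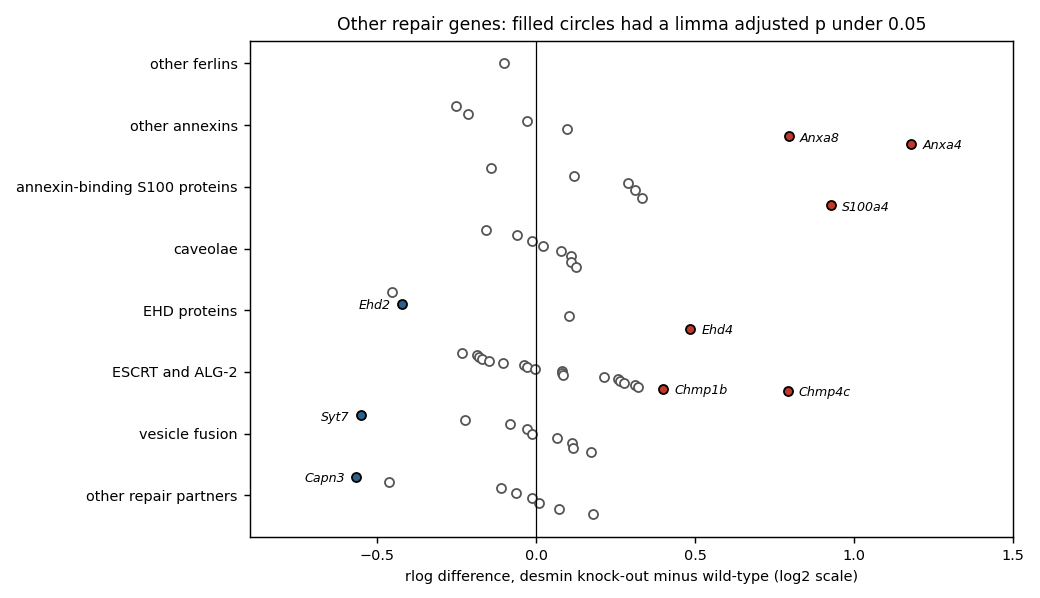
Difference between desmin knock-out and wild-type muscle on the rlog scale (log2, horizontal axis) for the 62 tested genes of 8 lists, each circle being 1 gene, filled where the limma adjusted p was under 0.05. Of the filled circles, Anxa4 at 1.18 lies farthest to the right, and Capn3, Syt7 and Ehd2 lie on the left.

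Other cells of muscle express annexins and AHNAK too, so their markers were read in the same mice, and none of the markers was at 0. Of 7 fibroblast markers, Lum, Col1a1 and Col3a1 rose and Ly6a fell (limma), and Pdgfra (0.078) did not pass. The calls of Col1a1 and Col3a1 held in 7 and 6 of 17 alternatives, that of Col3a1 not without wild-type mouse 3. The summed level of this list was 13.78 to 14.37 in knock-out and 13.45 to 14.32 in wild-type mice. Such sums add linear values, so the most abundant markers of a list weigh most. Those were Dcn and Col3a1 here (knock-out means 12.93 and 12.23, compared with 8.93 for Pdgfra). They were Lyz2 (10.47) among macrophage markers and Rgs5 (12.86) among markers of smooth muscle and pericytes. None of 7 macrophage markers passed (limma, also none at an unadjusted p under 0.05), Adgre1 having a log2 difference of 0.075, and their sum was 10.92 to 11.35 compared with 10.53 to 11.24.

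Of 4 tendon markers, Tnmd, Thbs4 and Scx rose, and Mkx did not pass (0.46, limma adjusted p 0.191). The sum of the list did not overlap, at 12.67 to 13.17 in knock-out and 11.61 to 12.61 in wild-type mice. That sum mostly follows Thbs4, whose means (12.8 and 11.9) were far above those of the next marker, Scx (8.7 and 8.0). Of 6 endothelial markers 5 fell (Tek in 5 of 17 alternatives, and not without wild-type mouse 3), Pecam1 by 0.49, and their sum was 11.89 to 12.28 compared with 12.40 to 12.68. Of 6 markers of regenerating muscle, Myh3, Mymk, Myog and Myh8 rose and Myod1 fell, while Pax7, the gene of satellite cells, did not pass (0.015). Their sum was 10.90 to 11.59 compared with 10.21 to 10.63. The part of these cells in the differences of the 10 genes was not tested.

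Of the remaining lists, Cspg4 rose among 5 markers of smooth muscle and pericytes (sum 13.28 to 13.60 compared with 13.49 to 14.20). The other 4 had lower means and did not pass, with log2 differences from -0.36 for Myh11 to -0.14 for Pdgfrb. No marker of Schwann cells passed (0 of 4 also at an unadjusted p under 0.05, limma, sum 9.84 to 10.29 compared with 9.61 to 10.45). Of 3 adipocyte markers none passed (limma, 0 of 3 also unadjusted), with sums of 9.92 to 11.23 compared with 9.92 to 11.14. S100a9 fell among 2 neutrophil markers, with sums of 4.11 to 4.64 compared with 4.38 to 5.16. Its knock-out mean (2.84) was below the expression limit, which it reached only through its wild-type mean (4.02). S100a8, the other neutrophil marker, did not pass (log2 difference 0.020, limma adjusted p 0.959). The erythroid markers Hbb-bs and Alas2 fell (held in 13 and 16 of 17), with sums of 11.09 to 11.63 compared with 11.65 to 12.97. Of 5 fiber markers Myh4 fell (held in 6 of 17 alternatives), with sums of 21.74 to 21.95 compared with 21.98 to 22.96. The list was mixed, as 4 had a lower mean and Myh1 a higher one (log2 difference 0.58, limma adjusted p 0.132). Without wild-type mouse 3, Myh1 rose by 0.79 (limma adjusted p 0.00524).

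**Figure D5:**
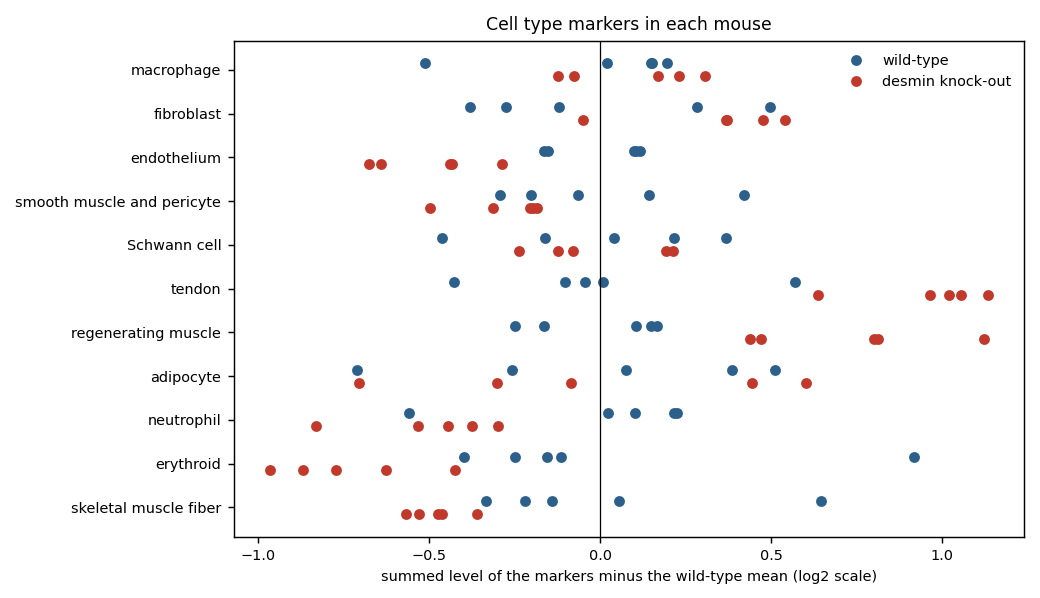
Summed level of each marker list per mouse, as the log2 of the genes' summed linear values minus the wild-type mean (horizontal axis), for 5 wild-type (blue) and 5 desmin knock-out (red) mice. Tendon and regenerating muscle lists lie higher in all knock-out mice, endothelium, erythroid and fiber lists lower, and fibroblast and macrophage lists overlap.

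Across the 10 mice, with each value taken relative to the mean of its genotype, the genes whose pattern was most like that of 4 of the genes were looked up. This is a description over 10 mice that share normalization and scaling, taken from the best of all tested genes. For Dysf these were Ints1 (Pearson r = 0.99), Usp20 (0.98) and Polr2e (0.98), and for Ahnak they were Ubn2, Prrc2c and Zscan26 (0.99 each). For Anxa2 they were Nudt2 (0.96), Nt5c3 (0.95) and H2afz (0.93), and for Trim72 Ostn (0.94), Gm32352 (0.92) and Pgk1 (0.90). Without wild-type mouse 3, Polr2e and Ubn2 were still among the closest 3. The other 10 were not, but stayed close, at ranks 4 to 19 of all tested genes with r of 0.887 (H2afz) to 0.986 (Ints1).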

How the data were processed

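Calf muscle RNA of 5 desmin knock-out and 5 wild-type mice was sequenced, and the groups were taken from the sample titles. The submitters' processing notes name cutadapt 2.5, STAR 2.5.4a, Subread 1.6.1 (featureCounts), DESeq2 and GRCm38. The authors deposited rlog values of DESeq2 as log2 values, corrected for library size and shrunk to each gene's average; the settings are not given in the sources used here. No counts were used, so counting error is unknown. Symbols, positions and exon lengths came from GENCODE M21 (GRCm38). All 10 columns were used.

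The fit across genes used limma 3.58.1 under R 4.3.3 on genes averaging log2(10) or more (lmFit, eBayes with a trended prior, two-sided, Benjamini-Hochberg over 14289 genes). The fit was tested on simulated data in which a gene had the same spread in all mice. Such data do not cover an outlying mouse like wild-type mouse 3. Des was tested by exact permutation (scipy). Named are the 10 genes, Des, up to 5 passing genes per list, fixed partners and markers, and the 3 closest genes by correlation for 4 of them; other markers that passed were named after their values were seen. Of the fixed markers, 1 is not reported here. Members and lists were chosen with earlier results of these data known. Vamp7 was not matched to a symbol and is not analysed here. Within a genotype, the labels used here tell the mice apart by number only, so p-values set a difference against the spread between these samples. Alternatives were 2 other expression limits (none and log2(50)), quantile normalization, median centring, arrayWeights, an untrended prior, a replicate block, each mouse left out, and an adjusted p under 0.01.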

Additional observations from a re-analysis of the deposited data

Results flagged for a closer look

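Of 102 groups of 5 mice (each genotype for 51 named genes), 10 held an outlying mouse by Dixon's test, which about 5.1 would do by chance, and none of the 10 genes of membrane repair was among them. Wild-type mouse 3 was the one in 6 groups, the highest wild-type mouse for Des (17.74), Smpd1 (12.77), Chmp4b (12.57), Capn2 (11.97), H2afz (11.14) and Nudt2 (9.77). The others were S100a4 (7.31) and Ehd1 (9.81), lowest in knock-out mouse 1, Cav1 (11.71), lowest in wild-type mouse 4, and Gm32352 (6.22), lowest in wild-type mouse 5. The cause was not tested.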

How the results depend on the processing

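Over 17 alternative fits between 5 and 7 of the 10 genes were called, and Anxa1, Anxa2, Anxa5, Ahnak and Ahnak2 were called in each. Trim72 was called in 3 of them (lost when any mouse but wild-type mouse 3 was left out) and Cav3 in 2. At an adjusted p under 0.01, 3 of the 10 were called (Anxa2, Anxa5 and Ahnak2), with 623 of all genes higher and 371 lower and 1 of the further repair genes lower. Sample weights, which gave wild-type mouse 3 a weight of 0.10, called 2093 genes higher and 2127 lower, and of the further repair genes 16 higher and 8 lower. Quantile normalization called 11 of the latter higher, with 1090 of all genes higher. With 1 mouse left out at a time, 827 to 1335 of all genes were higher and 560 to 1159 lower. Of the further repair genes, 5 to 10 were higher and 1 to 5 lower. All of these counts were highest without wild-type mouse 3. Without knock-out mouse 5, 560 genes were lower, and 1 repair gene was lower without knock-out mouse 3 or 5. Of 865 values of named genes under the alternatives, 818 kept their side of the threshold or, for the 10 genes, stayed within 1 SD. The changed calls of Trim72 and Cav3 are therefore counted among these 818. Of the values of the other named genes, 30 no longer passed and 17 newly passed. The cause was not tested.

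The replicate numbers showed no sign of pairing the mice (correlation of same-numbered mice -0.22 to 0.067, and 0 of 5 knock-out mice closest to their own number). With 5 mice per genotype, this check cannot exclude pairing. With the replicate number as a block, 913 genes were higher and 666 lower, 5 and 2 of the further repair genes, and 5 of the 10 genes. Depth is unknown, so small differences of genes of low level, such as Myof, cannot be judged by counting error.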
